A study of Mus musculus with 96 samples.

Results

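Sulfonation joins a sulfonate group to small molecules and so makes them more soluble in water. The 10 genes described here are those of the cytosolic sulfotransferases and of the enzymes that make their cofactor. Members were chosen by symbol in the deposited count table, and all 10 were found among its 47373 genes. They comprise 8 sulfotransferases, Sult1a1, Sult1b1, Sult1c2, Sult1d1, Sult1e1, Sult2a8, Sult3a1 and Sult5a1, and both PAPS synthases, Papss1 and Papss2.

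The libraries came from livers of 12 male B6C3F1 mice aged 10 to 11 weeks. Of these, 6 drank water with phenobarbital at 600 ppm for 7 days and 6 were controls at 0 ppm. From every mouse a mix of lobes was frozen first and then split, so each mouse gave 1 library to each of 8 preservation states, which makes 16 groups of 6 mice. The states were frozen, 3 months in 70% ethanol, 18 hours in formalin followed by ethanol up to 3 months, and 3 months in formalin, the last 3 embedded in paraffin. Material from the 3-month formalin blocks was also worked up in 4 ways, which were heating of isolated RNA for 30 minutes at 70 °C in TAE buffer, 18 hours at 55 °C with an organocatalyst in an AllPrep or a PureLink isolation, and the same 18 hours at 55 °C in an AllPrep isolation without the catalyst, called heat only below. The series asks how far such work-up recovers RNA profiles from archival tissue. The labels give no transgene or mutant allele, and frozen controls are the reference for levels throughout.

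Library totals ran from 1264563 counts, in the 3-month formalin library of control 8A, to 18442730, and the second lowest was 6257294. Hepatocyte markers were abundant, with a summed level of 103914 to 121883 CPM in frozen controls, and no marker of that list was at 0 in any group. CPM are counts scaled to the library's total after a TMM adjustment between libraries. Cyp2b10, the cytochrome P450 classically induced by phenobarbital, checked the treatment labels: in frozen liver it had 0.0698 to 0.378 CPM in controls and 1818 to 2784 CPM in treated mice. Its groups did not overlap in any of the 8 states. Values are from bulk tissue, in which fewer cells of a type and less RNA per cell cannot be told apart.

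Cytosolic sulfotransferases move the sulfonate group from PAPS, the activated form of sulfate, to phenols, steroids, bile acids and amines, and leave PAP behind. PAPS is made from sulfate and ATP by the bifunctional synthases Papss1 and Papss2, of which the latter is the prominent form in liver. Phenobarbital activates the nuclear receptor CAR, and drug-metabolizing enzymes of the sulfonation family are among the genes that such receptors control. Several of the mouse family members are strongly sex-dependent in liver, and some are nearly silent in males.

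Among the members, Sult1b1, Sult1d1 and Sult1e1 lie side by side on the minus strand of chromosome 5 (GRCm38, GENCODE M21), at chr5:87513339-87538195, chr5:87554645-87569027 and chr5:87575969-87591594. Sult1d1 and Sult1e1 were higher with phenobarbital in every state in which they were tested, whereas Sult1b1 met the threshold in none, so the start regions of these neighbours are shown together. Each window covers 250 bases before and 50 after the start site, 5′ to 3′ on the gene's strand, and was taken from RefSeq on GRCm38.p6. Capitals mark every match, on either strand, to the nuclear receptor half-site AGGTCA, its variant with the letters AGTTCA, the TATA box written TATAAA, the CCAAT box, or the HNF1 half-site GTTAAT, and a match on the opposite strand reads as its reverse complement.
Sult1e1, chr5:87591562-87591861: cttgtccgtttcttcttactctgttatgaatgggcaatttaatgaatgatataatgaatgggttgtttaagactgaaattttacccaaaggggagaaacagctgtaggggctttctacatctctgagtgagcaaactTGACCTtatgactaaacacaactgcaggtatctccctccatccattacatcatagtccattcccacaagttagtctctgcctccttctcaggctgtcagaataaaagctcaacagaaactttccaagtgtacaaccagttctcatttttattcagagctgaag
Sult1d1, chr5:87568957-87569256: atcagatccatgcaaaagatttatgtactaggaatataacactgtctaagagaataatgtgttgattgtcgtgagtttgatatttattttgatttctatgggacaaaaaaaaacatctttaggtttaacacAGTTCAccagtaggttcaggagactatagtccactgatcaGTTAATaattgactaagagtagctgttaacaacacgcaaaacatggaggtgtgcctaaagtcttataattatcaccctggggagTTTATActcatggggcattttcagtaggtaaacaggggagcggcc
Sult1b1, chr5:87538146-87538445: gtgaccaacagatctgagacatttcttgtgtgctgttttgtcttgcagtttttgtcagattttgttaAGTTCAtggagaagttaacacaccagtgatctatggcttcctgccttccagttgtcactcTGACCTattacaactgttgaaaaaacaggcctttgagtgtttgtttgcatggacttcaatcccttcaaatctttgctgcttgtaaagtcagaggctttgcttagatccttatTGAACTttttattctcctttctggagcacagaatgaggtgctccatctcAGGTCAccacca

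With the start site counted as 0, the Sult1e1 window holds 1 AGGTCA at -113 and none of the other 4 words. The Sult1d1 window holds AGTTCA at -119, GTTAAT at -79 and TATAAA at 5. The Sult1b1 window, for the first of its 2 start sites in the table, holds AGTTCA at -183 and -11 and AGGTCA at -123 and 38. No matches overlap in these windows. Such words are common: of 32851 windows of 300 bases in the table, 16.3% hold AGGTCA, 14% AGTTCA, 13.6% TATAAA, 37.4% CCAAT and 7.1% GTTAAT. A match describes the letters only, and nothing was measured on these sites here.

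Levels of different genes were compared as CPM per kilobase of merged exons. In frozen controls the order ran from Sult2a8 at 254 ± 28.4 (SD, n = 6) through Sult1a1 at 94.3 ± 14.2, Papss2 at 50.1 ± 4.37 and Sult1d1 at 41 ± 9.08 to Sult1b1 at 7.44 ± 1.83, Sult5a1 at 6.49 ± 1.9, Papss1 at 5.53 ± 0.838, Sult1c2 at 2.55 ± 0.47 and Sult1e1 at 0.328 ± 0.323 CPM per kilobase. Sult3a1 had no count in these 6 libraries. The ranges over mice overlapped between Papss2 and Sult1d1, along the run Sult1b1, Sult5a1 and Papss1, and between Sult1e1 and Sult3a1, and they were apart between the other neighbours in that order. Sult2a8 acts on bile acids and related sterols, and Sult1a1 is the main phenol sulfotransferase. Sult2a8 was first in all 16 groups, and in the 8 control groups its lowest library stayed above the highest of the next gene.

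**Figure D1:**
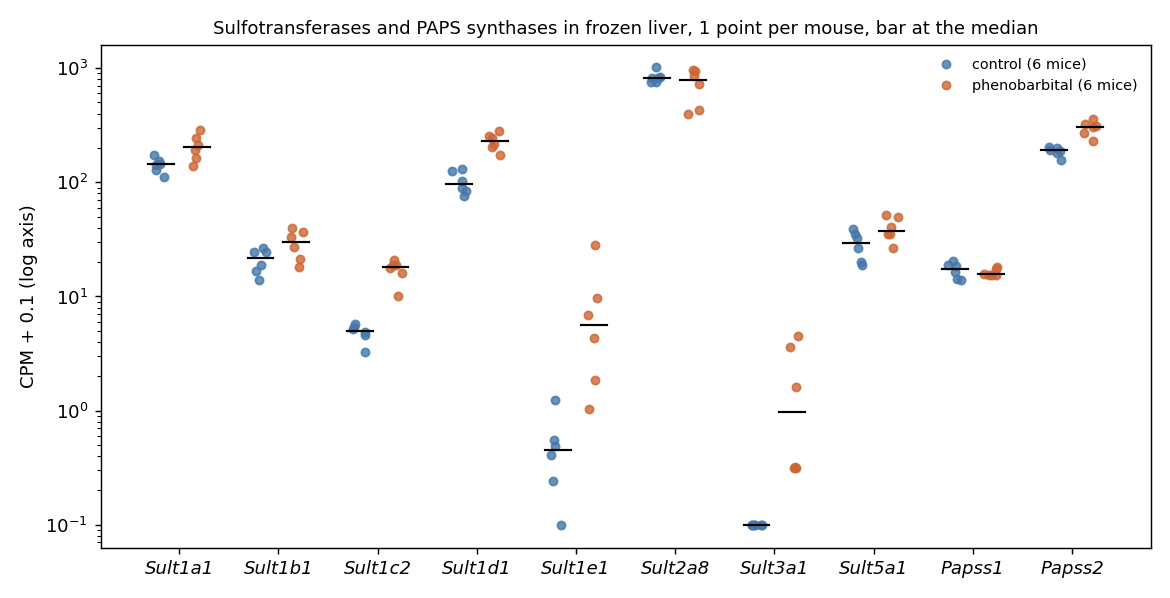
Level of each of the 10 genes in frozen liver, in CPM plus 0.1 on a log axis, with 1 point per mouse, controls in blue, treated mice in orange and a bar at the median of 6. Control and treated points are separate for Sult1c2, Sult1d1, Papss2 and Sult3a1, and the treated points of Sult1e1 run from 0.94 to 28.1 CPM.

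In frozen liver phenobarbital was followed by higher RNA of Papss2, Sult1a1, Sult1c2, Sult1d1 and Sult1e1. These were 5 of the 9 members tested, all higher, at an adjusted p under 0.05 (edgeR quasi-likelihood test, adjusted by Benjamini-Hochberg over all 13929 genes tested), which is what "called" means below. Over all genes the test called 9.43%. The median log2 change over the 9 tested members was 0.53 and over all genes tested -0.01. Sult3a1 did not pass the filter on low counts in any state and is described separately.

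Papss2, the liver's prominent PAPS synthase, had 158, 191 and 202 CPM as the lowest, median and highest frozen control and 229, 307 and 355 CPM in treated mice. The groups did not overlap, and the log2 change was 0.68 ± 0.10 (SE; adjusted p 0.00072, edgeR). Sult1d1, which sulfonates amines and eicosanoids, ran from 75.2 over a median of 95.9 to 130 CPM in controls and from 173 over 230 to 279 CPM in treated mice. Every treated mouse exceeded every control, and the log2 change was 1.18 ± 0.15 (adjusted p 0.00018, edgeR). Sult1c2, a sulfotransferase of phenols, ran from 3.14 over 4.91 to 5.6 CPM in controls and from 9.97 over 18.2 to 20.6 CPM in treated mice. Its groups were again apart, with a log2 change of 1.85 ± 0.17, a fold of 3.6 (adjusted p 1.4e-05, edgeR).

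Sult1e1, the estrogen sulfotransferase, had the largest fitted change of the members tested. In frozen controls it had 0, 0.349 and 1.15 CPM as the lowest, median and highest value, and in treated mice 0.94, 5.47 and 28.1 CPM. The highest control, 90C, lay above the lowest treated mouse, 20D, so the ranges met, and treated mice differed among themselves by more than an order of magnitude. The log2 change was 4.39 ± 0.87 (adjusted p 0.0065, edgeR), a fold of 21. Without treated mouse 20B it was 3.50, a fold of 11.3, and without control 90C it was 5.04, a fold of 32.8, and the call held in both cases with adjusted p of 0.0082 and 0.0097 (edgeR).

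Sult1a1 had 111, 143 and 174 CPM as the lowest, median and highest frozen control and 139, 202 and 285 CPM in treated mice, with ranges that overlapped. Its log2 change was 0.53 ± 0.16 at an adjusted p of 0.049 (edgeR), just inside the threshold. The call did not outlast leaving out any 1 of 9 mice (controls 8A, 8C, 21C, 82B and 90C, treated 18D, 20B, 20D and 80B), which gave adjusted p of 0.063 to 0.104 with log2 changes of 0.42 to 0.56, nor limma voom with quality weights (adjusted p 0.097). Sult1a1 shares 7.36% of its 50-base words with other genes, most of them with Gm6939. It overlaps Sgf29 on the opposite strand, as Sult5a1 overlaps Gm20388 and Papss1 overlaps Gm42881, and the strand setting of the counting is not given in the sources used here.

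Markers of liver cells were read beside these changes. The summed hepatocyte markers were lower in treated mice, at 81332 to 104179 CPM in frozen liver, and 1 of 8, the transcription factor Hnf4a, was called lower (log2 change -0.25, adjusted p 0.021, edgeR). None of the 6 Kupffer cell, 6 endothelial, 6 stellate and 5 erythroid markers, and none of the 3 cholangiocyte and 1 lymphocyte markers that could be tested, was called in that comparison. In the other states the endothelial marker Lyve1 was called higher in 4 (3-month formalin, TAE, catalyst AllPrep and heat only, log2 changes of 0.97 to 1.24) and the endothelial marker Oit3 in 2 (3-month formalin and TAE, 0.71 and 0.57). The other endothelial markers were called in no state, with log2 changes over the 8 states of -0.27 to 0.06 for Stab2, -0.06 to 0.22 for Clec4g, -0.03 to 0.26 for Kdr and 0.08 to 0.46 for Pecam1. The Kupffer cell marker Adgre1 was called higher in catalyst AllPrep (0.84), while Clec4f, Cd5l, Marco, Vsig4 and Timd4 were called in no state. Of the hepatocyte markers, Hnf4a was called lower also in TAE, catalyst AllPrep and catalyst PureLink (-0.38, -0.37 and -0.29), Alb in ethanol and catalyst PureLink (-0.63 and -0.65) and Ttr in heat only (-0.55). These marker genes were named after their values were seen. In heat-only liver the summed hepatocyte markers were 63195 to 74020 CPM in controls and 37086 to 59378 CPM in treated mice, and the mitochondrial share of counts was 4.96% to 7.19% against 6.88% to 16.5%. The marker sums were also apart in catalyst AllPrep (66762 to 86982 against 53315 to 63751 CPM) and catalyst PureLink (63362 to 77185 against 40962 to 59822 CPM). They overlapped in the remaining states. The part of any of these in the results was not tested.

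The same comparison was made in each of the other 7 states, which held portions of the same livers and so are no independent mice. Ethanol gave 4 called of 9 tested members against 6.98% of all genes, and 18-hour formalin gave 4 of 9 against 4.88%. In 3-month formalin 3 of 8 were called against 2.1%, and after TAE 4 of 9 against 3.29%. Catalyst AllPrep gave 4 of 9 against 4.94%, catalyst PureLink 4 of 9 against 4.65% and heat only 3 of 8 against 5.03%. Every called member was higher with phenobarbital. Among all called genes, 63.2% were higher in catalyst AllPrep and 69.0% in catalyst PureLink, and with library totals alone 82.6% and 82.4%.

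Papss2, Sult1c2 and Sult1d1 were called in all 8 states. For Papss2 the log2 change ran from 0.64 in 18-hour formalin to 0.77 in ethanol, with SE of 0.10 to 0.14 and adjusted p up to 0.012 (edgeR). For Sult1d1 it ran from 0.94 in 3-month formalin to 1.27 in ethanol, and for Sult1c2 from 1.51 in heat only to 1.92 in ethanol. Ranges of control and treated mice stayed apart in 8 of 8 states for Sult1c2 and Sult1d1 and in 4 of 8 for Papss2. Of these 3, Papss2 had the narrowest span of change across states.

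**Figure D2:**
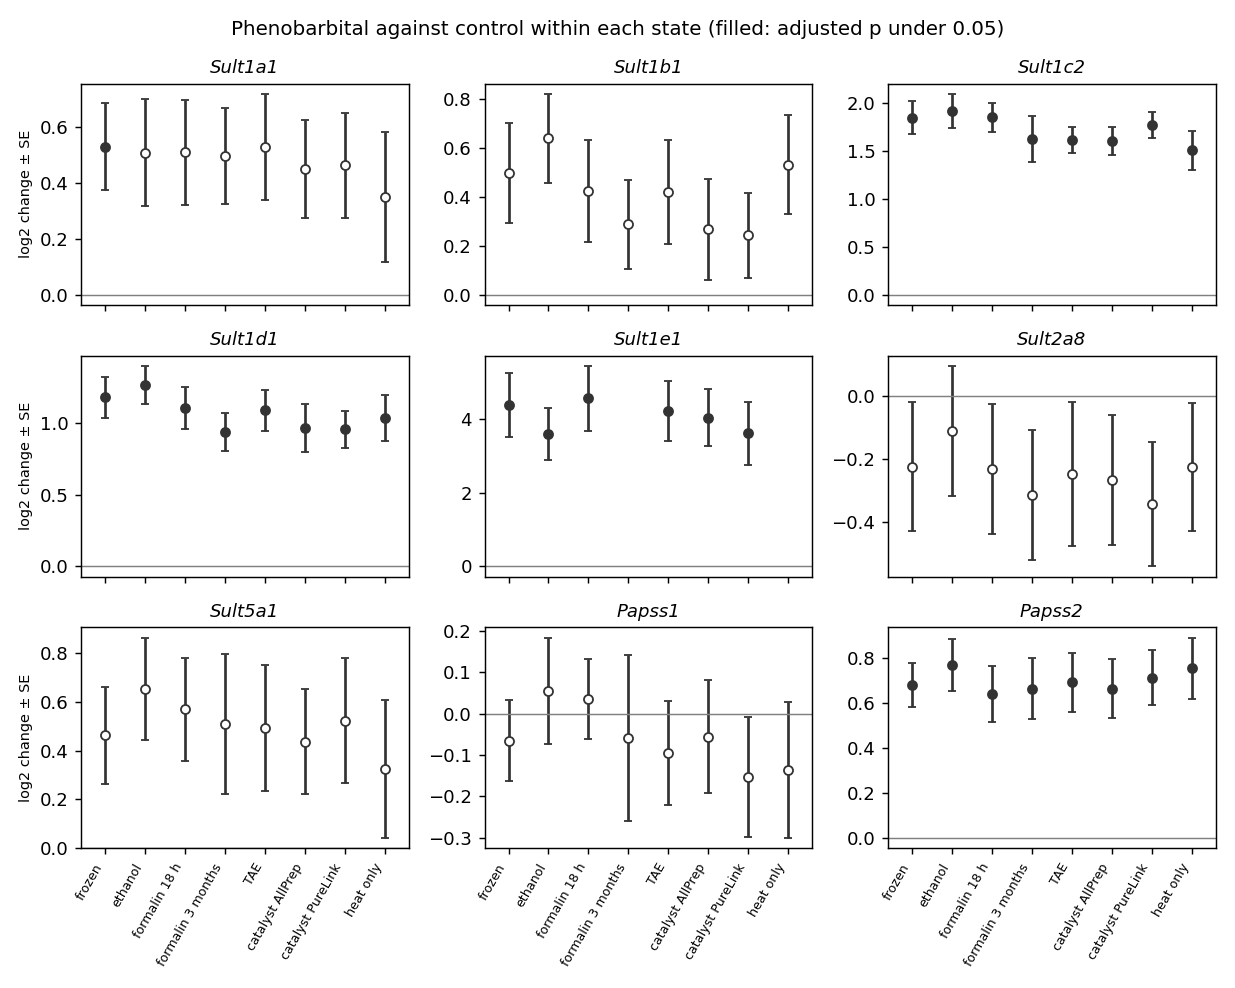
Log2 change with phenobarbital in each of the 8 states for the 9 genes that could be tested, as the edgeR estimate with its SE over 6 control and 6 treated mice, filled where the adjusted p is under 0.05. Papss2, Sult1c2 and Sult1d1 are filled in every state, Sult1e1 in the 6 states where it was tested and Sult1a1 in frozen liver alone, and the vertical scale differs between panels.

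Sult1e1 was called in the 6 states in which it passed the filter, with log2 changes of 3.60 in ethanol to 4.57 in 18-hour formalin and SE of 0.71 to 0.89. Leaving out treated mouse 20B lowered the fold from 12.1 to 7.59 in ethanol, from 23.7 to 11.6 in 18-hour formalin, from 18.7 to 9.86 after TAE, from 16.5 to 9.58 in catalyst AllPrep and from 12.3 to 6.43 in catalyst PureLink. In catalyst PureLink the call (adjusted p 0.025, edgeR) was also lost, with adjusted p of 0.053 to 0.059, when 1 of controls 8A, 8C, 21C or 82B or treated 20B or 80B was left out, and with limma voom (0.065). In 3-month formalin and heat only Sult1e1 did not pass the filter, and its summed counts were 6 against 155 and 12 against 383. The ratio of counts per library total was 22.8 (95% exact interval 10.2 to 63.1, counting error only) in 3-month formalin and 34.7 (19.6 to 67.7) in heat only. An exact two-sided permutation test over mice gave p of 0.0043 and 0.0022, adjusted over the 10 such tests run here 0.0062 and 0.0043. The ratio in 3-month formalin was 116 (counting interval 20.4 to 4592) without control 90C, which had 5 of the 6 control counts, and 15.0 without treated 20B, and in heat only it was 17.8 without 20B.

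Sult3a1, an amine sulfotransferase that is female-predominant in mouse liver, was at 0 counts in all 6 frozen controls. The treated mice had 0.213, 0.872 and 4.4 CPM as the lowest, median and highest value, with counts of 3 to 65. Had all controls together held 3 counts, their level would be 0.0329 CPM. Set against that floor, the counts pooled over treated mice were at least 46.9-fold higher, and at least 32.2-fold without treated 20B. These bounds hold for the pool and not for each mouse. Of the 48 control libraries over all states 1 held a single count, in catalyst PureLink, whereas the treated groups summed to 64 to 149 counts.

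By the same floor, Sult3a1 pooled over treated mice was at least 35.5-fold higher in ethanol, 31.5-fold in 18-hour formalin, 18.8-fold in 3-month formalin, 22.7-fold after TAE, 30.2-fold in catalyst AllPrep and 33.3-fold in heat only. In catalyst PureLink the ratio was 97.3 with a counting interval of 17 to 3883, which rests on 1 count in control 90C, and without that mouse the level was at least 27.3-fold higher. Without treated 20B the bound fell to 13.7-fold after TAE and 20.1-fold in catalyst AllPrep, and without treated 80B to 21.2-fold in heat only. By the exact two-sided permutation test over mice, p was 0.0022 in frozen, ethanol, 18-hour formalin and catalyst AllPrep, the smallest that 6 against 6 allows, 0.0043 in catalyst PureLink and 0.015 in 3-month formalin. After TAE and in heat only, where 2 treated mice had no count, p was 0.061 and did not reach the threshold. Adjusted over the 10 tests the values were 0.0043, 0.0062, 0.019 and 0.061. With its neighbour Sult3a2 it shares 6.15% of its 50-base words, so a small part of its reads could be assigned to either.

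Sult1b1, Sult2a8, Sult5a1 and Papss1 were called in no state. Sult1b1, which acts on thyroid hormones and phenols, had log2 changes of 0.24 to 0.64, and its adjusted p of 0.0502 in ethanol was the nearest to the threshold (edgeR). Its call in ethanol appeared with DESeq2 (adjusted p 0.014), with limma voom (0.014), without the low-count filter (0.045) and without any 1 of 5 mice (8C, 21C, 20B, 75C and 80B, 0.030 to 0.048), and in 18-hour formalin without control 21C (0.043). Sult5a1, a member with little known of its substrates, had 18.7, 29.4 and 39.2 CPM as the lowest, median and highest frozen control and 26.2, 37.6 and 51.6 CPM in treated mice. Its groups overlapped in every state, with log2 changes of 0.32 to 0.65 and adjusted p of at least 0.081 (edgeR), and it was called in ethanol with DESeq2 (0.031) and without treated 20D (0.013). Papss1, the second synthase, lay between -0.15 and 0.06 on the log2 scale with SE of 0.10 to 0.20, while Papss2 was called in every state.

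Sult2a8, the most abundant member, had log2 changes of -0.34 to -0.11 with SE of 0.20 to 0.23 and adjusted p of 0.40 to 0.80 (edgeR). In frozen liver the controls had 755, 824 and 1012 CPM as the lowest, median and highest value. Treated 80B and 20B had 395 and 426 CPM, whereas 75C, 20D, 18B and 18D had 726, 860, 935 and 958 CPM. The first 2 lay far below every control and 75C just below, and the other 3 lay within the control range.

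Treated mice 20B and 80B stood apart in several members and in every state. For Sult1e1, 20B was highest among the 6 treated mice in 8 of 8 states and 80B was second in 8 of 8. Over states 20B ran from 8.24 to 28.1 CPM and 80B from 4.33 to 10.1 CPM, against 0.554 to 2.06 CPM in 20D. For Sult3a1 the same pair held the top 2 places in 8 of 8 states, at 2.21 to 4.4 CPM in 20B and 2.02 to 3.83 CPM in 80B. For Sult2a8 it held the bottom 2 places in 8 of 8 states, at 359 to 426 CPM in 20B and 344 to 403 CPM in 80B, while 18B ran from 777 to 973 CPM. For Papss2, 20B was highest in 8 of 8 states and 75C lowest in 8 of 8, and for Sult1a1, 80B was highest in 8 of 8. Every state holds the same livers, so these ranks are not independent of each other and describe 6 mice.

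Sult2a7, a neighbour of Sult2a8 on chromosome 7 and no member here, was the 1 gene of 13 other cytosolic sulfotransferases that reached a mean of 1 CPM in any group. In frozen liver it had 0.419, 1.41 and 1.73 CPM as the lowest, median and highest control and 0.814, 2.35 and 8.53 CPM in treated mice. Mice 20B and 80B again held the top 2 places in 8 of 8 states, with 7.05 to 10.9 and 4.18 to 9.71 CPM, so Sult2a7 was high in the mice in which Sult2a8 was low. Sult2a7 shares none of its 50-base words with another gene. Sult2a7 was called higher in ethanol (log2 change 1.94, adjusted p 0.036), catalyst AllPrep (2.09) and heat only (1.80, adjusted p 0.042), and not in frozen liver (1.60, adjusted p 0.10, edgeR). The other 12 genes of that list, among them Sult2a1 and Sult2b1, were near or at 0, the highest group mean being 0.304 CPM for Sult4a1.

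**Figure D3:**
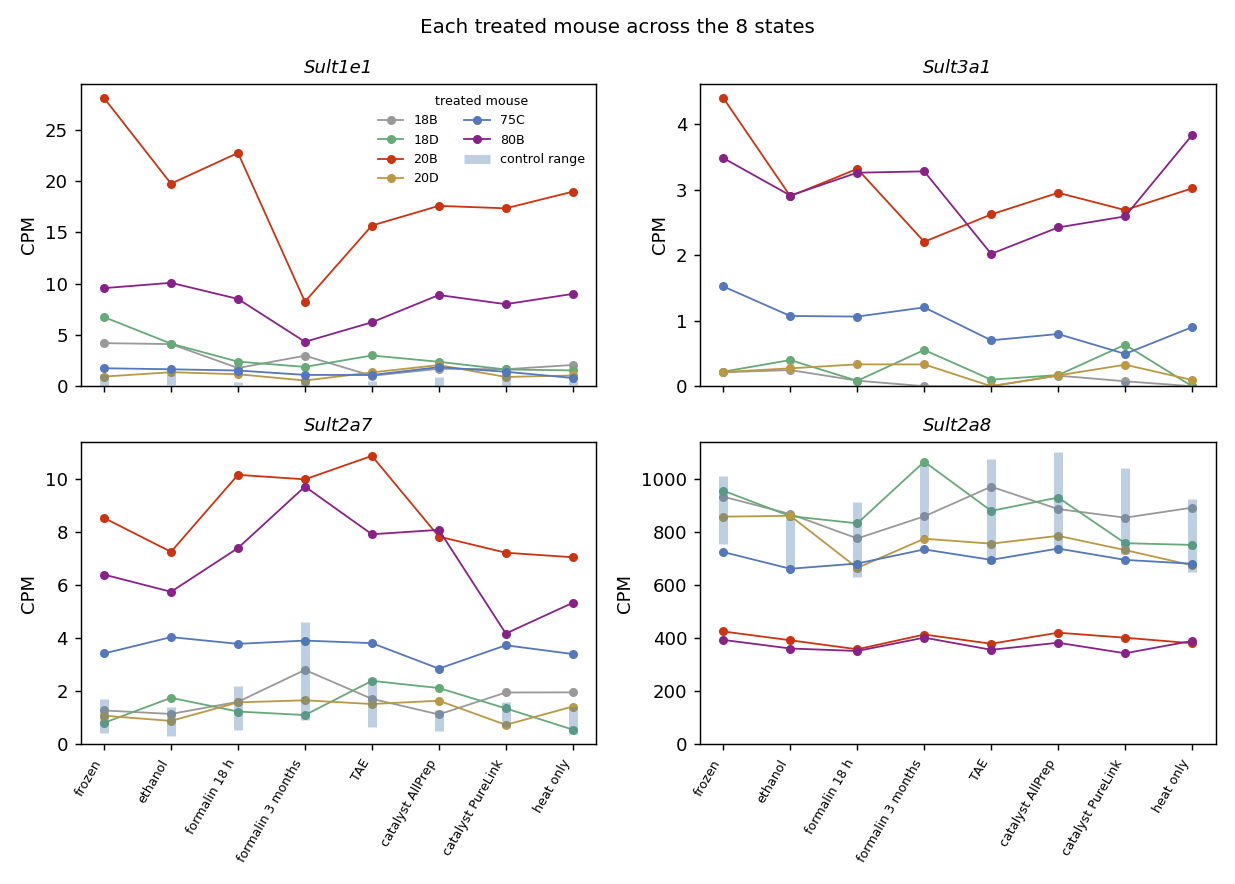
CPM of Sult1e1, Sult3a1, Sult2a7 and Sult2a8 in each of the 6 treated mice (lines) across the 8 states, with the range of the 6 controls as a blue bar. Lines of 20B and 80B are the upper pair for Sult1e1, Sult3a1 and Sult2a7 and the lower pair for Sult2a8 in every state.

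The spread between mice was compared with the spread between portions of 1 mouse on log2(CPM + 0.1). Among treated mice Sult2a8 had an SD between mice of 0.57 in the median state, and an SD within a mouse over the 8 states of 0.07 once each state's mean was removed. The same pair of values was 1.58 and 0.38 for Sult1e1, 1.84 and 0.44 for Sult3a1, 0.46 and 0.10 for Sult1a1 and 0.29 and 0.07 for Papss2. For these 5 genes, treated mice differed from each other by more than portions of a mouse did. Among controls the SD between mice was lower for Sult2a8, at 0.20, and for Sult1a1, at 0.25. For Papss1 both spreads were near each other, at 0.20 and 0.16 among treated mice.

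The makeup of the family differed with treatment. Of the summed level of the 8 sulfotransferases, in CPM per kilobase, Sult2a8 made up 62.7% ± 3.2 (SD, n = 6) in frozen controls and 44.4% ± 12.9 in treated mice, with a range of 27.1% to 57.3%. Sult1d1 made up 10.0% ± 1.67 in controls and 19.3% ± 3.01 in treated mice, and its ranges, 8.71% to 12.7% and 16.6% to 23.3%, were apart. Sult1a1 took 23.2% ± 1.88 and 28.6% ± 9.03. The sum itself was 407 ± 44.5 CPM per kilobase in controls and 485 ± 56.8 in treated mice, with overlapping ranges. Of the summed level of both synthases, Papss2 made up 87.6% to 92.2% in controls and 92.3% to 94.4% in treated mice. Shares add up to a fixed total, so a higher share of 1 gene lowers the others.

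**Figure D4:**
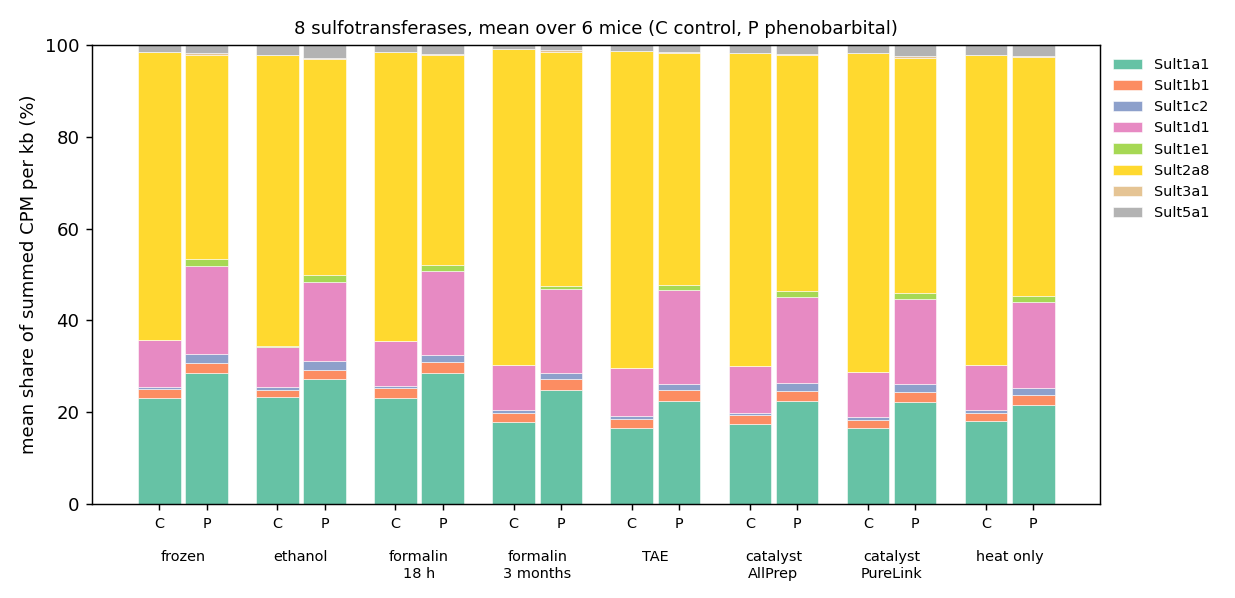
Mean share of each sulfotransferase in the summed CPM per kilobase of the 8, for control (C) and phenobarbital (P) mice, 6 each, in the 8 states. Sult2a8 is the largest block in each bar, and the Sult1d1 block is wider in the treated bar of every state, at 17.3% to 20.3% against 8.78% to 10.5% in controls.

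Whether preservation altered the phenobarbital effect was tested as the difference between each state and frozen liver, over 24 libraries. No member was called in any of the 7 interaction tests, and in these fits, which do not use the mouse as a block, none of the 10 had an unadjusted p under 0.05 (edgeR). For Sult3a1, with controls at or near 0 counts, the SE was 3.03 to 5086, and 1.45 to 6628 with the block. The largest of these values come from a test statistic near 0 and measure no spread. With controls at that level the tests of Sult3a1 could not decide whether the effect differed. Over all genes 0% were called in ethanol, 18-hour formalin, 3-month formalin, TAE, catalyst AllPrep, catalyst PureLink and heat only, with 170, 226, 482, 211, 408, 243 and 662 genes at an unadjusted p under 0.05. DESeq2 called no gene in any of them, and with the mouse as a block edgeR called 9 genes in heat only (0.0612% of those tested) and none elsewhere, no member among them. Of the 70 tests of members with the block, 5 had an unadjusted p under 0.05, and the lowest adjusted p was 0.38. Among these 5, the difference for Sult1d1 was -0.25 ± 0.09 in 3-month formalin (adjusted p 0.83, edgeR), -0.21 ± 0.08 in catalyst AllPrep (adjusted p 0.38) and -0.23 ± 0.08 in catalyst PureLink (adjusted p 0.81). The others were Sult1a1 in heat only, at -0.25 ± 0.11 (adjusted p 0.39, edgeR), and Sult2a8 in ethanol, at 0.10 ± 0.05 (adjusted p 0.89). Without the block the difference for Papss2 ran from -0.03 to 0.08 on the log2 scale with SE of 0.15 to 0.18, and for Sult1d1 from -0.24 to 0.08 with SE of 0.20 to 0.23. For Sult1c2 it ran from -0.35 to 0.07 with SE of 0.22 to 0.29. With the block the SE was 0.05 to 0.09 for Papss2, 0.07 to 0.09 for Sult1d1 and 0.13 to 0.22 for Sult1c2. The difference for Sult1e1 was less precise, at -0.78 to 0.49 with SE up to 1.73 without the block. With the block it was -0.85 to 0.30 with SE of 0.38 to 0.65, so the tests of Sult1e1 could not decide on differences of that size.

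Levels of several members differed between preservation states, as did those of many other genes. The fits below set the 12 libraries of a state against the 12 frozen ones with treatment as a covariate, and since each mouse gave a library to both, the fit with the mouse as a block is given where it changes a call. A log2 difference is relative to the TMM scaling, under which the median of all genes stayed between -0.01 and 0.04 in these comparisons. With library totals alone that median moved to 0.08 in ethanol, 0.18 in 18-hour formalin, 0.06 in 3-month formalin and 0.25 to 0.30 in the worked-up portions. Among all called genes, 49.8% to 55.2% were higher than frozen with TMM and 56.2% to 86.3% with library totals alone, over the 7 states. Against 3-month formalin these shares were 45.6% to 51.5% and 72.2% to 91.7%.

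Ethanol called 1 of 9 tested members against 32.8% of all genes, and 18-hour formalin 3 of 9 against 41.1%. In 3-month formalin 6 of 9 were called against 60.5%, after TAE 4 of 9 against 59%, in catalyst AllPrep 3 of 9 against 50.4%, in catalyst PureLink 4 of 9 against 59.2% and in heat only 4 of 9 against 57%. Each of these calls was lower than frozen, apart from Papss2 in 3-month formalin. Sult1e1 is among them in 3-month formalin alone (log2 difference -1.35, adjusted p 0.045), and DESeq2 did not call it there (0.072). With the block the counts rose to 7 of 9 in ethanol against 53% of all genes, 7 in 18-hour formalin against 57.9%, 8 in 3-month formalin against 66% and 6 after TAE against 68.9%. They were 4 in catalyst AllPrep against 63.2%, 8 in catalyst PureLink against 71.2% and 7 in heat only against 66.8%. Without the block, the share of members called exceeded that of all genes in 3-month formalin alone. With the block it did so in every state but TAE and catalyst AllPrep. The difference between these shares was not tested.

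Papss1 was lower than frozen in every state except ethanol, by log2 differences of -0.33 in 18-hour formalin to -0.61 in 3-month formalin and heat only, and its call in 18-hour formalin was lost with library totals alone (-0.15, adjusted p 0.056). In frozen liver it had 14, 17.3 and 20.1 CPM as the lowest, median and highest control, and in heat only 9.36, 11.5 and 12.8 CPM, which do not overlap. In ethanol its difference of -0.18 was called with the block alone (adjusted p 0.0052, edgeR). Papss2 differed from its partner: it was called in 3-month formalin, where it was higher by 0.37 ± 0.08 (adjusted p 0.00047, edgeR), with 214, 227 and 256 CPM in controls against 158, 191 and 202 CPM frozen. In the other 6 states its differences lay between -0.12 and 0.07 and were not called, except -0.12 in catalyst PureLink with the block (adjusted p 0.0009, edgeR). With library totals alone Papss2 was called higher in 18-hour formalin (0.20), TAE (0.30), catalyst AllPrep (0.23) and heat only, where the sign turned from -0.05 to 0.21 (adjusted p 0.024).

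Sult1a1 was called lower in 3-month formalin (-0.37) and in all 4 worked-up portions (-0.54 to -0.69), and with the block also in ethanol (-0.23, adjusted p 2.5e-07) and 18-hour formalin (-0.24, adjusted p 9.6e-08, edgeR). Its controls went from 143 CPM at the median in frozen liver to 90.7 CPM in catalyst PureLink, and the highest control there and the lowest frozen one were both at 111 CPM. Sult1c2 was called lower in the 6 states other than ethanol, by -0.36 to -0.68, and in ethanol with the block (-0.15, adjusted p 0.037). With library totals alone 4 of these calls were lost, in 18-hour formalin (-0.25), catalyst AllPrep (-0.15), catalyst PureLink (-0.15) and heat only (-0.28). Sult1d1 was called in ethanol (-0.37), 18-hour formalin (-0.29), catalyst PureLink (-0.33) and heat only (-0.34), and with the block also in 3-month formalin (-0.13, adjusted p 0.028), TAE (-0.15, adjusted p 0.0062) and catalyst AllPrep (-0.19, adjusted p 0.00082). Library totals alone ended its calls in 18-hour formalin (-0.11), catalyst PureLink (-0.06) and heat only (-0.09).

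Sult1b1 and Sult2a8 were not called in any of the 7. With the block Sult1b1 was called lower in ethanol (-0.34), catalyst PureLink (-0.31) and heat only (-0.26), the first 2 of these also with DESeq2 (adjusted p 0.045 each). The block called Sult2a8 in ethanol (-0.14), 18-hour formalin (-0.21), 3-month formalin (0.11), catalyst PureLink (-0.09) and heat only (-0.14). The block called Sult1e1 lower in 18-hour formalin (-0.52), TAE (-0.81), catalyst PureLink (-0.64) and heat only (-0.69).

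**Figure D5:**
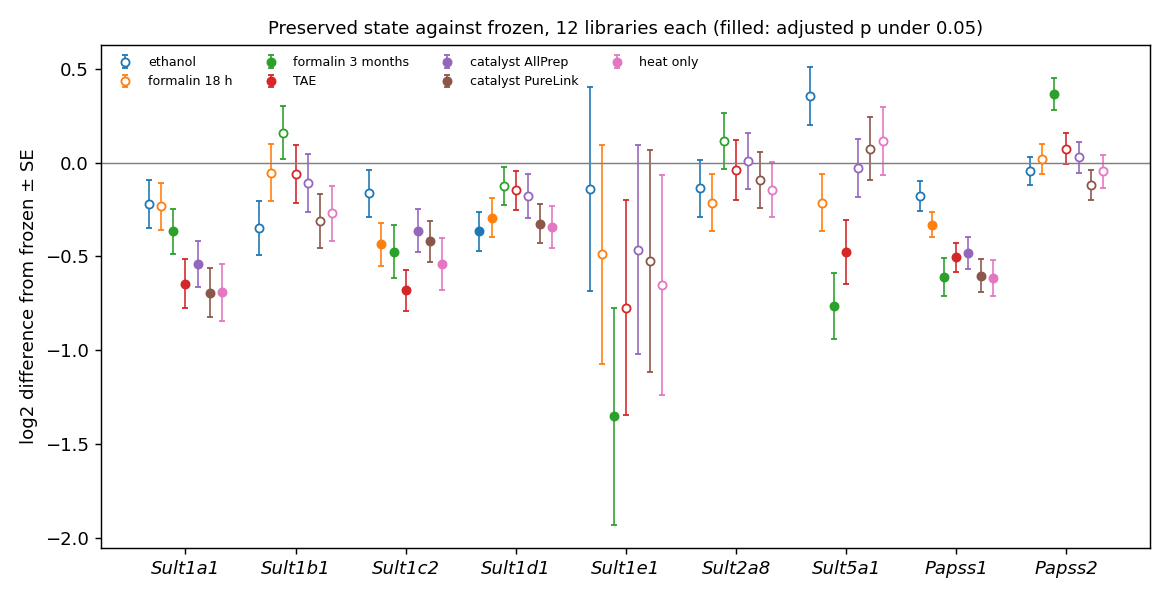
Log2 difference of each preserved state from frozen liver for the 9 genes tested, as the edgeR estimate with its SE over 12 libraries a state and treatment as a covariate, filled where the adjusted p is under 0.05. Papss1, Sult1a1, Sult1c2, Sult1d1 and Sult1e1 lie below 0 throughout. Papss2 is called in 3-month formalin alone, at 0.37 (in heat only its sign turns with library totals alone). Sult5a1 is lowest in 3-month formalin, at -0.76.

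Sult5a1 moved with the work-up. In frozen controls its median was 29.4 CPM, and in 3-month formalin controls the lowest, median and highest values were 10.3, 14.9 and 32.3 CPM. The highest of these came from 8A, the shallowest library, with 39 counts of the gene, and without that library the difference from frozen was -0.85 (adjusted p 0.00011, edgeR). Mouse 8A was the highest control for Sult5a1 in 8 of 8 states, so its high value is not particular to that library. The difference from frozen was -0.76 ± 0.18 (adjusted p 0.00053, edgeR) in 3-month formalin and -0.48 ± 0.17 (adjusted p 0.018) after TAE, the latter lost with library totals alone (-0.25, adjusted p 0.22), and -0.21 in 18-hour formalin was called with the block alone (adjusted p 0.00027). In catalyst AllPrep, catalyst PureLink and heat only it was -0.03, 0.07 and 0.12, none of them called. In ethanol it was 0.35 and called with the block (adjusted p 4.1e-07), and with library totals alone (0.44, adjusted p 0.030).

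Set directly against 3-month formalin, heat only called 3 of 8 tested members against 46.8% of all genes, catalyst AllPrep 2 of 8 against 47.4%, catalyst PureLink 3 of 9 against 59.8% and TAE 1 of 8 against 17.3%. In none of these did the share of members exceed that of all genes. Sult5a1 was higher by 0.93 ± 0.21 in heat only, 0.74 ± 0.18 in catalyst AllPrep and 0.87 ± 0.20 in catalyst PureLink, and by 0.29 ± 0.20 after TAE, where only the block called it (0.27, adjusted p 0.022). Papss2 was lower in all 4, by -0.28 after TAE, -0.33 in catalyst AllPrep, -0.36 in heat only and -0.45 in catalyst PureLink, and Sult1b1 was lower in heat only (-0.38) and catalyst PureLink (-0.44). Papss1 lay 0.04 to 0.14 above 3-month formalin and was not called, except with library totals alone after TAE and in catalyst AllPrep (0.30 each). With the block the counts were 6 in heat only against 55.9% of all genes, 4 in catalyst AllPrep against 57.8%, 6 in catalyst PureLink against 66.7% and 4 after TAE against 34.5%, adding Sult1a1 in all 4 (-0.17 to -0.31), Sult2a8 in 3 (-0.15 to -0.20), Sult1d1 in heat only and catalyst PureLink and Sult1b1 in catalyst AllPrep. The TAE call of Papss2 was lost without the low-count filter (adjusted p 0.086). Library totals alone ended the Papss2 calls after TAE (-0.10), in catalyst AllPrep (-0.17) and in heat only (-0.19), and both Sult1b1 calls (-0.21 and -0.24), and DESeq2 called Sult1a1 in catalyst PureLink (adjusted p 0.047).

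The catalyst itself is isolated by catalyst AllPrep against heat only, which share the kit, the time and the temperature. That comparison called 0 of 9 tested members and 0.891% of all genes, of which 69.9% were higher with the catalyst (47.2% with library totals alone). Without the block none of the 9 had an unadjusted p under 0.05 with edgeR, and DESeq2 called none. Estimates ran from -0.18 for Sult5a1 to 0.15 for Sult1c2 and Sult1e1, and with the block 1 of 9 was called against 14% of all genes, Sult1d1, at 0.13 (adjusted p 0.049, edgeR). Also under an unadjusted p of 0.05 with the block, though not called, were Sult1a1 (0.15, p 0.0077, edgeR) and Sult2a8 (0.11, p 0.017). The same held for Sult5a1 (-0.15, p 0.030, edgeR) and Sult1c2 (0.16, p 0.039).

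Genes around the pathway were read from 6 further lists in the phenobarbital comparisons. Over all genes 9.43% were called in frozen liver, and the list counts stand beside that share. Of 4 genes that move or clear PAPS and PAP, 1 rose in frozen liver: Bpnt1, the cytosolic phosphatase that removes PAP, went from 58.7 to 72.9 CPM (log2 change 0.31 ± 0.06, adjusted p 0.004, edgeR) and was called in 3 of 8 states. Bpnt2, the Golgi PAP phosphatase, and Slc35b2, the carrier of PAPS into the Golgi, had 0.13 and -0.04 and were not called. Of 4 tested sulfate transporters, Slc26a1, the sulfate-anion exchanger of the hepatocyte's sinusoidal membrane, rose from 286 to 380 CPM (0.41 ± 0.07, adjusted p 0.0016) and was called in 6 of 8 states, at 0.30 to 0.44. Slc26a2 and Slc26a11 had 0.05 and 0.03. The median log2 change of these 2 lists was 0.07 and 0.23, against -0.01 over all genes.

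Of 10 genes that lead from methionine and cysteine to sulfate, 1 rose and 1 fell in frozen liver. Cbs, which makes cystathionine on the way to cysteine, fell from 620 to 439 CPM (-0.50 ± 0.09, adjusted p 0.0037, edgeR) and was called lower in 7 of 8 states. Ethe1, the mitochondrial persulfide dioxygenase, rose from 35.1 to 54.8 CPM (0.64 ± 0.16, adjusted p 0.022) and was called in 4 states. Cdo1, cysteine dioxygenase, had -0.29 (adjusted p 0.088, edgeR) in frozen liver and was called lower in 2 of 8 states, catalyst AllPrep (-0.43) and catalyst PureLink (-0.36), while Got2 had 0.06. Of 12 tested sulfatases and sulfatase modifying factors Sumf2 alone was called in frozen liver, with 0.34 ± 0.09 (adjusted p 0.026), and in no other state. Arsg had -0.35 (adjusted p 0.081, edgeR) in frozen liver and was called lower in 4 of 8 states, ethanol (-0.47), 3-month formalin (-0.49), catalyst AllPrep (-0.43) and catalyst PureLink (-0.34). Of 15 tested Golgi sulfotransferases, which act on proteins and glycans, Ndst2 alone was called in frozen liver, with -0.22 ± 0.06 (adjusted p 0.045), while Ndst1 had -0.20 and Hs6st1 -0.25 there and were called lower in 1 and 2 of the other states. In frozen liver 1 call of 12 and 1 of 15 do not exceed the 9.43% called over all genes. Outside the naming rule, and named after their values were seen, Got1 and Arsa were each called lower in 2 states and Cth, the next enzyme after Cbs, higher in 2. The median log2 change was -0.05 for the cysteine list, 0.15 for sulfatases and -0.13 for Golgi sulfotransferases.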

How the data were processed

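The data are whole-number read counts per gene for 96 liver libraries, as deposited by the authors. CASAVA, the aligner STAR 2.5 and edgeR are listed in the submitters' processing notes, as are the build names mm10 and GRCm38, with no role for any. Per the labels' protocols, libraries were stranded total RNA depleted of ribosomal RNA. How reads were counted (tool, annotation, strand) is not given in the sources used here.

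Gene identifiers were matched to GENCODE M21 (GRCm38), and spike-in rows were left out. CPM are counts scaled to a library's total over gene rows multiplied by its TMM factor, with factors computed over all 96 libraries. Counts were fitted with edgeR 4.0.16 in R 4.3.3 (TMM scaling, its default low-count filter, quasi-likelihood test, Benjamini-Hochberg adjustment over all genes tested, threshold 0.05). The SE given with an edgeR estimate is the absolute log2 change divided by the square root of the test's F statistic. It grows without limit where that statistic nears 0 and the change does not. The 8 phenobarbital comparisons used the 12 libraries of a state, the 12 state comparisons added treatment as a covariate, and the 7 interaction fits used 24 libraries. The fit was tested on simulated counts, which were drawn for each library without a shared mouse and so do not cover the pairing of states. Sult3a1 everywhere, and Sult1e1 where it missed the filter, were compared with exact permutation tests (SciPy 1.17.1). A count of 0 was given a floor of 3 counts over the group, and intervals and floors cover counting error only. Floors and count ratios use library totals without TMM, which is another scale than CPM.

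Alternatives were RLE scaling, library totals alone, no low-count filter, DESeq2 1.42.0, limma 3.58.1 voom with quality weights, leaving out each mouse, and the mouse as a block. Leaving out the shallowest library was added after the data were seen. The pairing comes from the animal numbers in the labels: across 12761 genes, deviations from the group means correlated above 0.1 in 336 of 336 pairs of libraries from the same animal (median 0.596, against -0.10 between different animals).

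Members and lists were chosen with earlier results of these data known. Named were all members, Cyp2b10, and, of each pathway list, up to 4 called genes with the smallest adjusted p and up to 2 uncalled genes with the highest level in frozen liver, with any other cytosolic sulfotransferase of at least 1 CPM in a group. A gene that this rule names is not reported here.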

Additional observations from a re-analysis of the deposited data

Results flagged for a closer look

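A library was marked where its gap to the nearest of the 6 values of its group, divided by the group's range, reached Dixon's 95% critical value. Of 144 groups of values 13 were marked, and chance flags about 1 in 20 groups. Groups in different states hold the same mice, so repeated marks are not independent.

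Control 21C was the highest for Sult2a8 in frozen liver (ratio 0.683, 1012 CPM against 836 CPM in the nearest mouse), ethanol (0.708), TAE (0.6251), catalyst AllPrep (0.798) and catalyst PureLink (0.725). The same mouse was the highest for Sult1b1 in 18-hour formalin (0.711, 34.2 CPM against 20.0 CPM), 3-month formalin (0.729) and TAE (0.633). Treated mouse 20B was the highest for Sult1e1 in frozen liver (0.682, 28.1 CPM against 9.56 CPM), 18-hour formalin (0.66) and TAE (0.644). Control 8D was the highest for Sult1a1 in ethanol (0.6305, 165 CPM against 128 CPM). Control 8A, the shallowest library, was the highest for Sult5a1 in 3-month formalin (0.6875, 32.3 CPM against 17.2 CPM). The same mouse was the highest control for Sult5a1 in 8 of 8 states.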

How the results depend on the processing

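For phenobarbital, the number of members called stayed within 1.5 times the reported count in every state under RLE scaling, library totals alone, DESeq2 and limma voom. Without the low-count filter it was 5 in 3-month formalin and 5 in heat only, against 3 in each, since Sult1e1 and Sult3a1 then entered the fit. Over all genes these unfiltered fits called 343 of 24890 and 685 of 26605. Leaving out each mouse gave 4 to 5 members in frozen liver, ethanol and 18-hour formalin, 3 to 4 in 3-month formalin, catalyst PureLink and heat only, and 4 in every fit of TAE and catalyst AllPrep. Leaving out the shallowest library kept each of the 8 log2 changes of 3-month formalin on its side of the threshold. No interaction was called for a member under any alternative.

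State comparisons depended more on the fit. With the mouse as a replicate block the number of members called was 7 in ethanol, 7 in 18-hour formalin, 8 in catalyst PureLink and 7 in heat only against frozen liver, 4 after TAE, 6 in heat only, 4 in catalyst AllPrep and 6 in catalyst PureLink against 3-month formalin, and 1 in catalyst AllPrep against heat only. The block added calls and ended none, and it also raised the share of all genes called, to 34.5% to 71.2% in those comparisons and 14% for catalyst AllPrep against heat only. With library totals alone the number of members called was 2 in ethanol, 1 in 18-hour formalin and 2 in catalyst PureLink against frozen liver, and 1 in heat only against 3-month formalin. Over all genes these fits called 4534 of 13908, 6864 of 13882, 9906 of 14132 and 6697 of 13283. DESeq2 gave 2 members in ethanol, with 4702 of 13908 genes called. Without the filter TAE against 3-month formalin gave 0 members, with 1787 of 28113 genes called. With library totals alone Papss2 in heat only turned from -0.05 to 0.21. The cause of these differences was not tested. In frozen controls Sult3a1 had 0 counts and Sult1e1 0 to 15 counts per library.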
